A study of Rattus norvegicus with 12 samples.

Results

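The subject is 9 genes of inhibitory neurons in the rat basolateral amygdala: the genes that make and package the transmitter GABA (Gad1, Gad2 and Slc32a1) and 6 genes that mark classes of inhibitory interneurons (Pvalb, Calb1, Calb2, Sst, Vip and Cck). Every probe set whose platform annotation gave exactly 1 gene symbol, equal to one of these 9, was taken. This gave 10 probe sets, 2 for Gad1 and 1 for each of the other 8 genes, of 31042 probe sets tested and of 14217 genes with at least 1 such probe set. The study asked which transcripts in this region differed between rats with a history of small sucrose drinks and rats without one. The sucrose group had up to 4 mL of 30% sucrose in an extra bottle 2 times a day for 14 days. The control group had the extra bottle with water on the same schedule. All were male Long-Evans rats of 2 to 3 months and 225 to 250 g, housed singly with chow and water always present, and killed on the morning of day 15. Each Affymetrix array held RNA from a pool of left and right tissue of 2 rats with the same treatment. The 24 rats therefore gave 6 sucrose and 6 control arrays, and n counts pools.

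The basolateral amygdala is mostly built of glutamatergic projection neurons, with a minority of GABAergic interneurons that hold their firing down. GABA is made from glutamate by 2 decarboxylases, encoded by Gad1 and Gad2, and is loaded into synaptic vesicles by the vesicular transporter encoded by Slc32a1. In the rodent basolateral amygdala, parvalbumin neurons, many of which also hold calbindin, innervate the soma and axon of principal cells, somatostatin neurons innervate their dendrites, and neurons with vasoactive intestinal peptide and calretinin often contact other interneurons. Cholecystokinin marks a further class of basket cells, but Cck is also expressed by forebrain projection neurons, and Calb1 is not confined to interneurons either. The genes are therefore readouts of several cell classes, and in RNA from whole tissue fewer cells of a type and less RNA per cell cannot be told apart.

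Gad2 and Slc32a1 had the highest positive correlation of all pairs among the 10 probe sets, and the 250 bases before their annotated start are shown for that reason. The sequences are those of RefSeq on assembly GRCr8, given 5′ to 3′ on the strand of the gene, with matches to the CCAAT motif and to the GC box (letters GGGCGG), on either strand, in capitals. Gad2, chr17:89671468-89671717, plus strand:
Gad2: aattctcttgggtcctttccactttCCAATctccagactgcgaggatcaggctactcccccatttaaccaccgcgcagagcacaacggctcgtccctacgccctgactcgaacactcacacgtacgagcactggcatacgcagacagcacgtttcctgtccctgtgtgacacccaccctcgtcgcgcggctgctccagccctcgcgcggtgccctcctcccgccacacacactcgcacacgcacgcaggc
Slc32a1, chr3:167686995-167687244, plus strand:
Slc32a1: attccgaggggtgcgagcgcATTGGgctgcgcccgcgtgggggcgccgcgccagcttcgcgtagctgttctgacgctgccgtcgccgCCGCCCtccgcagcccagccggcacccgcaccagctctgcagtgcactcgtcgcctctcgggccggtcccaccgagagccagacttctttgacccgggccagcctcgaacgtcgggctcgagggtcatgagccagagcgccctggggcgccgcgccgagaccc
Both windows held 1 CCAAT match, at -225 to -221 on the plus strand in Gad2 and at -230 to -226 on the minus strand in Slc32a1, counted from the start. The Slc32a1 window also held 1 GC box match at -163 to -158 on the minus strand. The TATA motif (letters TATAAA) and the cyclic AMP response element (letters TGACGTCA) had no match in either window. Of 33469 windows of this length in the table, 34.0% held the CCAAT motif, 30.5% the GC box, 12.9% the TATA motif and 1.59% the cyclic AMP response element. GC content was 62.0% in the Gad2 window and 73.6% in the Slc32a1 window, against a median of 51.2% over all windows. These matches describe the letters of the windows and are not binding sites. Of the 9 genes, 6 had a window in the table.

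The deposited values are linear ratios of an array's signal to the mean of the 6 control arrays, made by the authors after RMA, which subtracts background, brings the arrays to one distribution and merges each probe set into 1 value. Such ratios keep no signal level, so the genes cannot be ranked by abundance, a probe set near background cannot be recognised, and the dissected region cannot be checked by the level of its markers. Over all probe sets the median difference between groups was -0.01 on the log2 scale, and the median ratio of an array ran from 0.989 to 1.002. No probe set passed an adjusted p of 0.05 (limma, Benjamini-Hochberg over 31042 probe sets, 0% called, lowest adjusted p 0.231). At an unadjusted p under 0.05, 4.5% were higher and 3.07% lower in the sucrose group, and the groups did not overlap for 0.425%. Among the sucrose pools 2 stood apart in markers of other cells. The mean log2 ratio of choroid plexus markers was 1.40 in sucrose array 1 and -0.238 to 0.342 in the remaining sucrose pools, with control pools at -0.227 to 0.213. The mean of oligodendrocyte markers was 0.440 in sucrose array 5 and -0.171 to 0.183 in the remaining sucrose pools, with control pools at -0.112 to 0.090. Several results that rest on these 2 pools are given with and without them, but single genes of the lists of related genes and markers are given with all pools only. Among the control pools, array 5 had the lowest mean of astrocyte markers, at -0.197, with the remaining control pools at -0.055 to 0.063. Its mean of transcription factors of GABAergic neurons was also the lowest, at -0.140, with the remaining control pools at -0.027 to 0.048.

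None of the 10 probe sets differed between the groups past the adjusted threshold, and their adjusted p ran from 0.556 to 0.979. Of the 10, 3 were higher and 7 lower in the sucrose group, with a median difference of -0.04 on the log2 scale, where 45.7% of all probe sets were higher. With 1 probe set per gene, 3 of the 9 genes were higher with a median of -0.037, and without sucrose array 5, 4 were higher with a median of -0.001. At an unadjusted p under 0.05 (limma) 1 was higher and 0 were lower, beside the 4.5% and 3.07% of all probe sets. The groups did not overlap for 0 of the 10. All ratios lay between 0.839 and 1.191, and all 95% intervals of the difference lay between 0.885-fold and 1.198-fold. For 4 of the 10 probe sets (Gad2, Slc32a1, Calb1 and Calb2) control array 3 was the highest of all 12 arrays. Without sucrose array 1, and likewise without sucrose array 5, 0 of the 10 passed the adjusted threshold and 1 had an unadjusted p under 0.05, Gad1 each time. None of the 10 was among the 145 probe sets of the authors' deposited table.

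**Figure D1:**
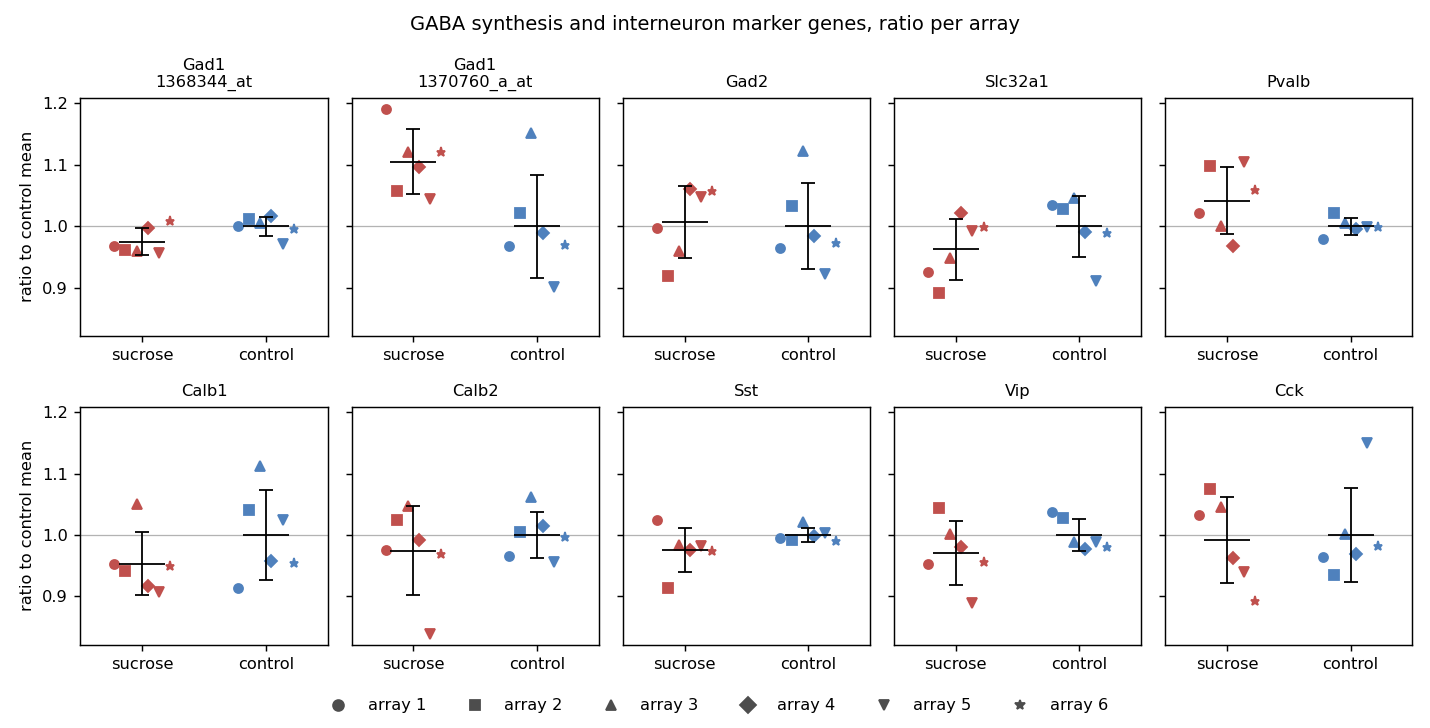
Ratio of each array to the mean of the 6 control arrays for the 10 probe sets (vertical axis, no unit, same scale in all panels), with sucrose arrays in red on the left and control arrays in blue on the right of each panel. Symbols mark the array number within a group, horizontal lines the mean and bars the SD over 6 pools, and the groups overlap in every panel.

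Gad1, which encodes the decarboxylase that makes most of the GABA pool of the brain, had 2 probe sets that ran in opposite directions. Probe set 1370760_a_at, designed on M38350, had ratios of 1.044 at the lowest, 1.109 at the median and 1.191 at the highest in the sucrose group, against 0.901, 0.979 and 1.151 in the control group. All 6 sucrose arrays were above the control median, but control array 3 at 1.151 was above all sucrose arrays except array 1. On the log2 scale the mean was 0.14 ± 0.07 in the sucrose group and -0.004 ± 0.12 in the control group (SD, n = 6 pools each). The difference was 0.15 ± 0.05 (SE; 95% interval 0.033 to 0.260), or 1.107-fold, with a limma p of 0.0149 and an adjusted p of 0.556. It ranked 832nd of the 31042 probe sets by p. The difference was 0.125 without sucrose array 1 (limma p 0.0368, adjusted p 0.748) and 0.163 without sucrose array 5 (limma p 0.0118, adjusted p 0.519).

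Probe set 1368344_at of Gad1, designed on NM_017007, had ratios of 0.957, 0.964 and 1.008 in the sucrose group and of 0.972, 1.003 and 1.016 in the control group, each lowest, median and highest. Of the sucrose arrays, 4 were below every control array and 2 lay within the control range. The difference was -0.037 ± 0.027 (SE; 95% interval -0.095 to 0.021), with a limma p of 0.194 and an adjusted p of 0.810. The exact two-sided permutation test over the 924 assignments of the arrays gave p = 0.0411 for this probe set, unadjusted and smaller than that of limma, which draws small variances toward those of all probe sets. Its residual SD of 0.028 was at the 1.04th percentile of all probe sets.

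Within an array, 1368344_at minus 1370760_a_at was -0.18 ± 0.07 in the sucrose group and 0.004 ± 0.11 in the control group (SD, n = 6 each, log2 scale). It ran from -0.300 to -0.126 in the sucrose arrays and from -0.196 to 0.109 in the control arrays, so the groups overlapped. The difference between the groups of -0.18 had an exact permutation p of 0.0108, in the only such pair tested, and a p of 0.0022 to 0.0238 when each array was left out in turn. Gad1 was known to have a difference in these data when this pair was set up. Over the 12 arrays, with group means removed, the 2 probe sets had a Pearson r of 0.399 (permutation p 0.185) and a Spearman rho of 0.483 (permutation p 0.127). Which Gad1 transcripts each probe set reads was not tested, since the probe sequences were not used here. Averaged over both, Gad1 differed by 0.055 (limma p 0.126, adjusted p 0.739).

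Gad2, which encodes the decarboxylase associated with synaptic vesicles, had ratios of 0.919, 1.023 and 1.061 in the sucrose group, against 0.922, 0.978 and 1.123 in the control group. The highest single value was control array 3, and the 6 sucrose arrays fell on both sides of 1, with arrays 1, 2 and 3 below it and arrays 4, 5 and 6 above. The difference was 0.011 ± 0.051 (SE; 95% interval -0.099 to 0.120; adjusted p 0.979), and it was -0.012 without control array 5 and 0.045 without control array 3.

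Slc32a1, which encodes the vesicular GABA transporter, had ratios of 0.891, 0.970 and 1.022 in the sucrose group, against 0.912, 1.010 and 1.046 in the control group. Sucrose arrays 1, 2 and 3 were low, at 0.925, 0.891 and 0.948, and control array 5 was the low one of its group at 0.912. The difference was -0.055 ± 0.043 (SE; 95% interval -0.148 to 0.038), with a limma p of 0.227 and an adjusted p of 0.829. Leaving out sucrose array 2 gave -0.033, and leaving out control array 5 gave -0.081 (limma p 0.0626).

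**Figure D2:**
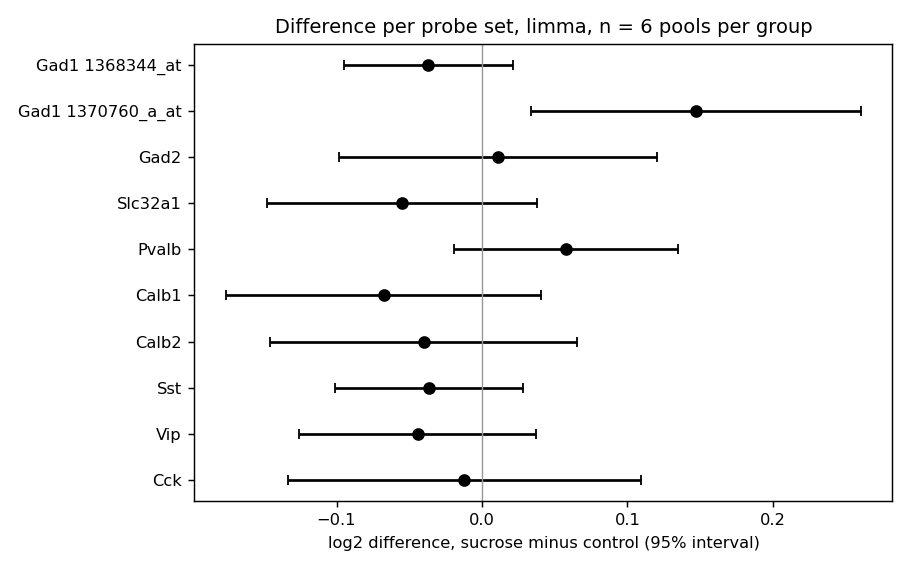
Difference in mean log2 ratio, sucrose minus control (horizontal axis, log2 units), for the 10 probe sets, with the limma 95% interval over 6 pools per group. The interval of Gad1 1370760_a_at (0.033 to 0.260) lies above 0 and the other 9 intervals include it.

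Among the calcium-binding proteins, Pvalb, the marker of fast-spiking basket and axo-axonic cells, was the only one with a higher mean in the sucrose group. Its ratios were 0.967, 1.040 and 1.104 in the sucrose group, against 0.979, 0.999 and 1.022 in the control group. Of the sucrose arrays, 4 were above every control array, 3 of them clearly (arrays 5, 2 and 6 at 1.104, 1.098 and 1.058), and array 4 was below all control arrays at 0.967. The difference was 0.058 ± 0.036 (SE; 95% interval -0.020 to 0.135; limma p 0.131, adjusted p 0.771). Without sucrose array 4 it was 0.079, with an unadjusted limma p of 0.0378. Without sucrose array 5, the pool high in oligodendrocyte markers, it was 0.041 (limma p 0.278), and without sucrose array 2 it was 0.042 (limma p 0.271). With the mean of the oligodendrocyte list as a covariate the Pvalb difference was 0.039 (limma p 0.310).

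Calb1, which encodes calbindin, had ratios of 0.907, 0.946 and 1.051 in the sucrose group, against 0.913, 0.990 and 1.113 in the control group. In the sucrose group 5 arrays lay between 0.907 and 0.953, and array 3 stood apart at 1.051. The difference was -0.068 ± 0.050 (SE; 95% interval -0.176 to 0.041; limma p 0.201, adjusted p 0.811), and it was -0.036 without control array 3 and -0.096 without sucrose array 3.

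Calb2, which encodes calretinin, had ratios of 0.839, 0.983 and 1.047 in the sucrose group, against 0.956, 1.001 and 1.061 in the control group. The low value was sucrose array 5, the pool high in oligodendrocyte markers. The difference of -0.040 ± 0.049 (SE; 95% interval -0.146 to 0.066; adjusted p 0.896) became 0.002 without that array.

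Sst, which encodes the peptide somatostatin, had ratios of 0.914, 0.978 and 1.025 in the sucrose group, against 0.990, 0.997 and 1.021 in the control group. The control arrays were tightly grouped, 5 sucrose arrays were below all of them, and sucrose array 1, the pool high in choroid plexus markers, was above all of them. The difference was -0.037 ± 0.030 (SE; 95% interval -0.101 to 0.028; limma p 0.245, adjusted p 0.832). Without sucrose array 1 it was -0.051 with a limma p of 0.109, and without sucrose array 2, the lowest, it was -0.018.

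Vip, which encodes vasoactive intestinal peptide, had ratios of 0.890, 0.968 and 1.043 in the sucrose group, against 0.977, 0.989 and 1.038 in the control group. Of the sucrose arrays, 3 were below all control arrays and 1, array 2, was above them. The difference was -0.044 ± 0.038 (SE; 95% interval -0.126 to 0.037; limma p 0.264, adjusted p 0.841), and it was -0.019 without sucrose array 5 and -0.065 without sucrose array 2.

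Cck, which encodes cholecystokinin, had ratios of 0.893, 0.997 and 1.076 in the sucrose group, against 0.934, 0.975 and 1.150 in the control group. Control array 5 was the highest of the 12, and sucrose arrays 1, 2 and 3 were all above 1 while arrays 4, 5 and 6 were all below it. The difference was -0.012 ± 0.057 (SE; 95% interval -0.134 to 0.109; adjusted p 0.979), and without control array 5 it was 0.029.

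The spread between pools differed among the genes. Pvalb and Sst were nearly constant across control pools and less so across sucrose pools. The SD of the Pvalb log2 ratio was 0.076 in the sucrose group and 0.020 in the control group, 3.80 times as large, and 0.744% of all probe sets had a ratio of SDs as high. The SD of Sst was 0.053 in the sucrose group and 0.016 in the control group, 3.28 times as large, a ratio reached by 1.42% of all probe sets. For Calb2 and Vip the ratios of SDs were 2.08 and 2.07, each reached by about 7% of all probe sets (7.21% and 7.26%). The SD was larger in the sucrose group for 6 of the 10 probe sets, where 45.4% of all probe sets had the larger SD in the sucrose group. With each array left out in turn the ratio was 3.11 to 5.26 for Pvalb and 1.89 to 6.57 for Sst, but fell to 0.878 for Calb2 without sucrose array 5. These spreads were looked at after the data were seen and were not tested.

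**Figure D3:**
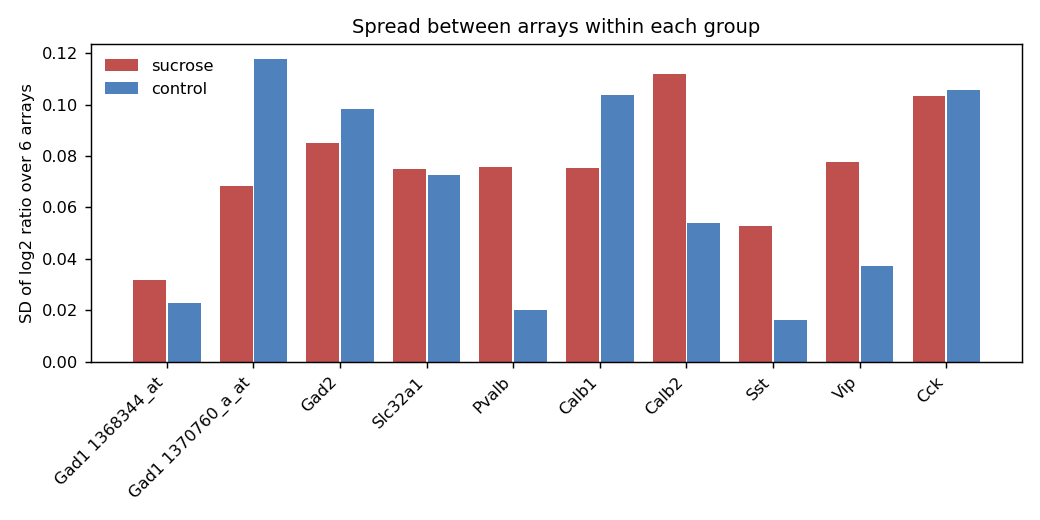
SD of the log2 ratio over the 6 pools of each group (vertical axis, log2 units), sucrose in red on the left and control in blue on the right, for the 10 probe sets. The bars of Pvalb (0.076 and 0.020) and Sst (0.053 and 0.016) differ most in proportion.

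From pool to pool, Gad2, Slc32a1 and probe set 1368344_at of Gad1 had positive correlations with each other and negative ones with Cck, none of them past an adjusted p of 0.05. With group means removed, Gad2 and Slc32a1 had a Pearson r of 0.826 over 12 arrays (permutation p 0.00299, drawn within groups) and a Spearman rho of 0.832 (permutation p 0.00284). The r was 0.927 within the sucrose group, 0.742 within the control group and 0.805 without the 2 arrays farthest from the median of Gad2. Adjusted over the 45 pairs of the 10 probe sets, p was 0.0891 for r and 0.128 for rho. Among 14216 other genes, Slc32a1 ranked 11th by its correlation with Gad2, and Gad2 ranked 9th by its correlation with Slc32a1. These correlations were chosen after the data were seen.

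Slc32a1 and Cck had an r of -0.845 (permutation p 0.00396, adjusted p 0.0891) and a rho of -0.678 (permutation p 0.0291, adjusted p 0.307). The r was -0.850 within the sucrose group, -0.840 within the control group and -0.600 without the 2 farthest arrays. Cck ranked 14213th of 14216 genes by its correlation with Slc32a1. For Gad2 and Cck the r was -0.653 (permutation p 0.0361, adjusted p 0.225) and the rho -0.580 (permutation p 0.0668, adjusted p 0.334), with an r of -0.905 within the sucrose group, -0.444 within the control group and -0.809 without the 2 farthest arrays.

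Probe set 1368344_at of Gad1 had the same signs. With Slc32a1 its r was 0.689 (permutation p 0.0258, adjusted p 0.225; 0.550 without the 2 farthest arrays) and its rho 0.706 (permutation p 0.0220, adjusted p 0.307). With Cck its r was -0.767 (permutation p 0.0137, adjusted p 0.206; -0.520 without the 2 farthest arrays) and its rho -0.629 (permutation p 0.0453, adjusted p 0.307). Probe set 1370760_a_at of Gad1 had an r of 0.664 with Gad2 (permutation p 0.0358, adjusted p 0.225) and a rho of 0.545 (permutation p 0.0820, adjusted p 0.369). That r was 0.043 within the sucrose group and 0.991 within the control group, and it rested on control arrays 3 and 5, without which it was 0.187. Its signs with the other genes did not hold: the r with Slc32a1 was 0.423 (permutation p 0.189; rho 0.336, permutation p 0.307), but -0.117 within the sucrose group and -0.086 without control arrays 3 and 5. The r with Cck was -0.247 (permutation p 0.433; rho -0.140, permutation p 0.678), but 0.116 within the sucrose group and 0.073 without those arrays.

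**Figure D4:**
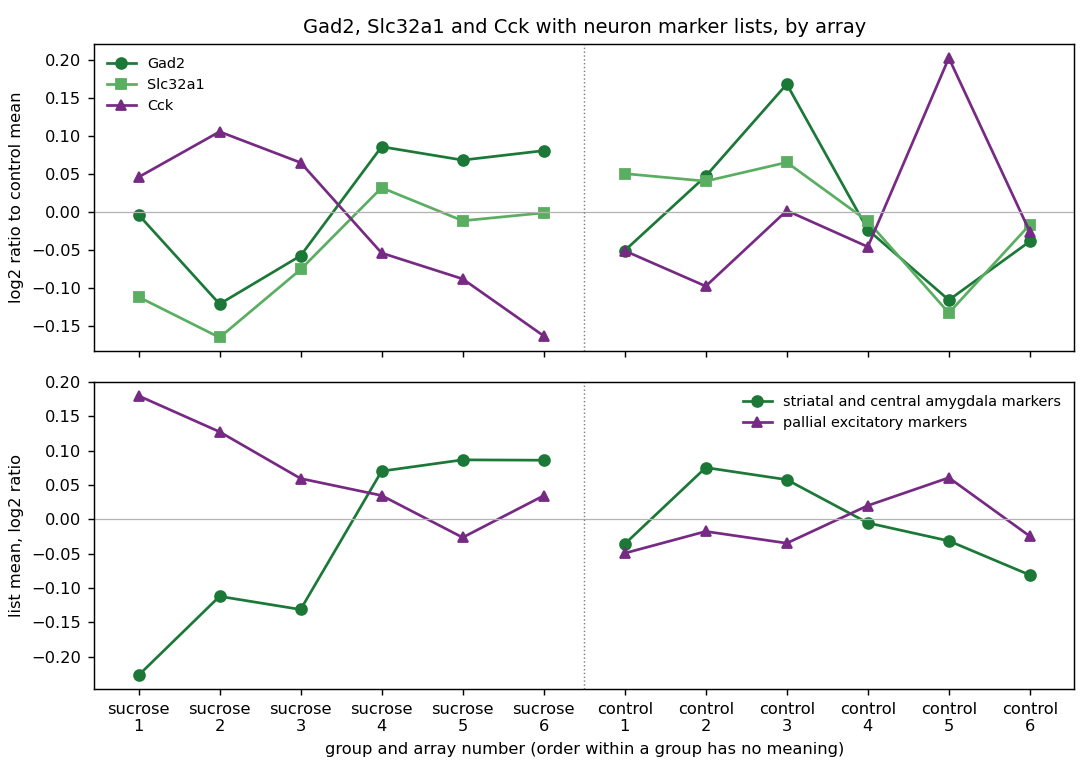
Upper panel: log2 ratio of Gad2, Slc32a1 and Cck on each array (vertical axis, log2 units), sucrose arrays on the left and control arrays on the right; lines join arrays only to guide the eye. Lower panel: mean log2 ratio of the striatal and central amygdala markers and of the pallial excitatory markers on the same arrays. In the sucrose group Gad2 and Slc32a1 are lower and Cck higher on arrays 1, 2 and 3 than on arrays 4, 5 and 6.

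Markers of neighbouring neurons and of pallial excitatory neurons differed between the same pools. The 17 striatal, central amygdala and intercalated neuron markers averaged -0.227, -0.112 and -0.131 on sucrose arrays 1, 2 and 3, and 0.070, 0.086 and 0.086 on sucrose arrays 4, 5 and 6. On the control arrays they averaged -0.081 to 0.075. The 12 pallial excitatory neuron markers averaged 0.180, 0.127 and 0.059 on sucrose arrays 1, 2 and 3 and -0.026 to 0.035 on the remaining sucrose arrays, and on the control arrays they averaged -0.049 to 0.061.

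Slc32a1 had an r of -0.792 with the pallial list (permutation p 0.00395) and a rho of -0.811 (permutation p 0.00589), with an r of -0.777 within the sucrose group, -0.904 within the control group and -0.732 without the 2 farthest arrays. With the striatal list, Slc32a1 had an r of 0.681 and a rho of 0.678 (permutation p 0.0236 and 0.0411; r 0.864 without the 2 farthest arrays), and Gad2 an r of 0.670 and a rho of 0.664 (permutation p 0.0158 and 0.0369; r 0.717 without them). Cck had an r of 0.682 and a rho of 0.713 with the pallial list (permutation p 0.0193 and 0.0202; r 0.523 without the 2 farthest arrays), and an r of -0.629 and a rho of -0.678 with the striatal list (permutation p 0.0369 and 0.0348; r -0.775 without them). With the oligodendrocyte list, Gad2 had an r of 0.563 and a rho of 0.741 (permutation p 0.0470 and 0.0136), and an r of 0.541 without the 2 farthest arrays. Its r with the pallial list was -0.546 (permutation p 0.0698). Gad1 1370760_a_at had an r of 0.030 with the pallial list and of -0.025 with the striatal list, and Gad1 1368344_at of -0.299 and 0.521 (permutation p 0.171 or higher). Of 140 relations between a probe set and an array measure 0 passed 0.05 after adjustment, and the lowest adjusted p was 0.454. With the striatal list as a covariate 0 of the 10 probe sets passed the adjusted threshold between the groups, as without it. The group difference with this covariate was 0.031 for Gad2 (0.011 without it), -0.038 for Slc32a1 (-0.055) and -0.034 for Cck (-0.012). The part of tissue composition in the correlations between these genes was not tested.

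**Figure D5:**
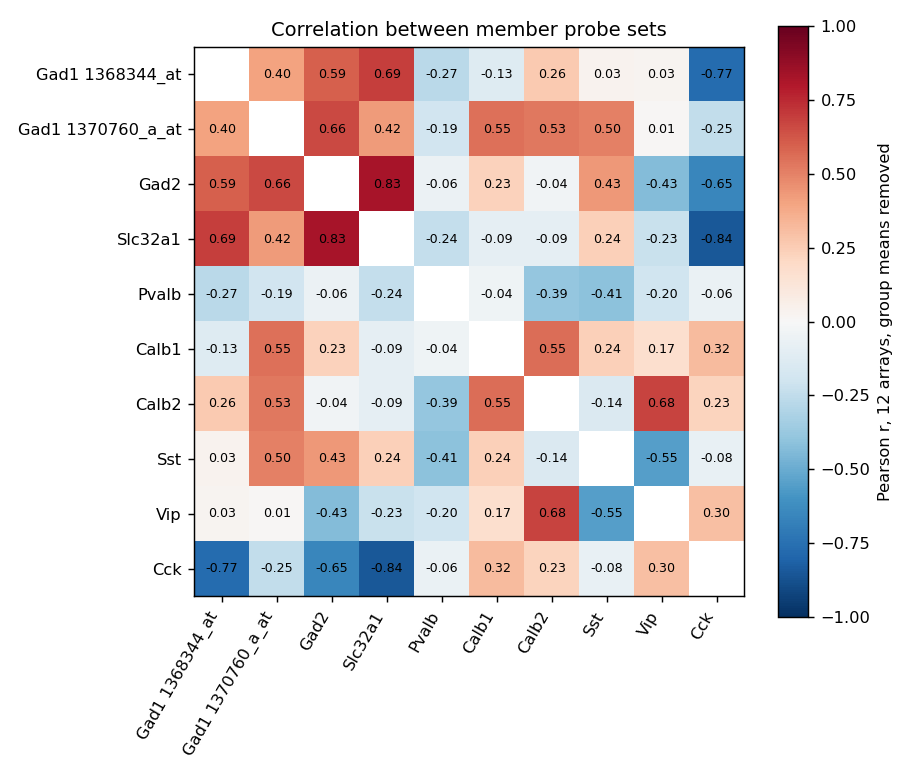
Pearson r between the 10 probe sets over 12 arrays after removal of the group means, as a colour from blue (-1) to red (1) with the value printed in each cell. Gad2 with Slc32a1 (0.83) and Slc32a1 with Cck (-0.84) are the strongest cells.

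Some correlations rested on 1 or 2 pools. Calb2 and Vip had an r of 0.679 (permutation p 0.0613, adjusted p 0.251) and a rho of 0.413 (permutation p 0.205, adjusted p 0.631). The r was 0.913 within the sucrose group and -0.331 within the control group, 0.321 without sucrose array 5 and 0.218 without sucrose arrays 3 and 5. Both genes were low in sucrose array 5, and Calb2 had an r of -0.744 with the oligodendrocyte list (permutation p 0.0365) and a rho of -0.350 (permutation p 0.299), with an r of -0.410 without sucrose array 5 and of -0.016 without sucrose arrays 3 and 5. Sst had an r of 0.759 with the choroid plexus list (permutation p 0.0927) and a rho of 0.622 (permutation p 0.0425). A further measure, the 3-prime excess, was the 3-prime minus the 5-prime log2 ratio of the beta-actin and Gapdh control probe sets. It is higher where RNA is less intact. With the 3-prime excess Sst had an r of -0.831 (permutation p 0.0409) and a rho of -0.483 (permutation p 0.127). With any 1 array left out these r were 0.587 to 0.862 with the choroid plexus list and -0.874 to -0.713 with the 3-prime excess. Without both sucrose arrays 1 and 2 they were 0.399 and 0.008. Adjusted over the 140 relations, these p were 0.566 or higher. Gad1 1370760_a_at had an r of -0.385 with the 3-prime excess (permutation p 0.136, adjusted p 0.777) and a rho of -0.497 (permutation p 0.12). That r was -0.858 within the sucrose group, 0.049 within the control group and -0.822 without control arrays 3 and 5. With the 3-prime excess as a covariate the group difference of this probe set was 0.137 (limma p 0.0205, adjusted p 0.574).

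For each gene the 3 genes with the most similar profile over the 12 arrays were found, by Pearson r after removal of the group means and with 1 probe set a gene. They were Trib2, Tmem47 and Aamp for Gad1 (r of 0.924, 0.899 and 0.894, by its more variable probe set 1370760_a_at), Cnot6l, Reep3 and Tspan3 for Gad2 (0.908, 0.889 and 0.876), and Calcr, Snx9 and Metrn for Slc32a1 (0.894, 0.871 and 0.862). For the calcium-binding proteins they were Smco3, Pilra and Arhgef37 for Pvalb (0.869, 0.852 and 0.846), Slc6a15, Vdac1 and Rtn1 for Calb1 (0.982, 0.945 and 0.921), and Rbbp8nl, Map3k7 and Ncoa7 for Calb2 (0.924, 0.892 and 0.883). For the peptides they were Csap1, Tdo2 and Slc6a11 for Sst (0.922, 0.909 and 0.891), Zfp956, Cdh2 and LOC102555876 for Vip (0.876, 0.830 and 0.829), and Higd2a, Hebp1 and Bfsp2 for Cck (0.910, 0.907 and 0.902). Calcr encodes the calcitonin receptor, Slc6a15 a neutral amino acid transporter and Slc6a11 an astrocytic GABA transporter. Of these 27 genes, 6 were also among the nearest 3 by Spearman correlation, so most of the names depend on the measure of likeness.

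Lists of related genes were counted from the same fit, each gene by its probe set of highest variance, and 0 of their genes passed the adjusted threshold. Over all 14217 genes taken in this way 44.7% were higher in the sucrose group, 5.11% were higher and 3.19% lower at an unadjusted p under 0.05, and the median difference was -0.007. Of 7 genes that recover and break down GABA, 5 were measured with 1 symbol, 3 higher and 2 lower in the sucrose group, 0 at an unadjusted p under 0.05, with a median difference of 0.007, and of -0.011 to 0.016 with each array left out in turn. Slc6a13, a GABA transporter of meninges and blood vessels, differed by -0.082 ± 0.044 (SE; limma p 0.0825). Abat, the transaminase that breaks GABA down, differed by 0.041 ± 0.064 and the astrocytic transporter Slc6a11 by 0.023 ± 0.072. Aldh9a1, an aldehyde dehydrogenase that can form GABA from putrescine, differed by 0.007 ± 0.037.

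Of 8 genes that supply glutamate and glutamine for GABA synthesis, 7 were measured, 4 higher and 3 lower, with a median difference of 0.036. It was 0.017 with the mean of all probe sets of a gene, and 0.015 without sucrose array 5. Of these genes, 1 was higher at an unadjusted p under 0.05 and 0 were lower. That gene was Slc1a1, the neuronal glutamate transporter, at 0.091 ± 0.040 (SE; limma p 0.0384, adjusted p 0.627), and at 0.054 with the mean of its 2 probe sets (limma p 0.0666). The glutamine transporter Slc38a1 differed by 0.095 ± 0.054 (0.028 with the mean of its probe sets), glutamine synthetase (Glul) by 0.062 ± 0.058 (0.017) and the glutaminase Gls2 by -0.037 ± 0.037.

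Of 18 transcription factors of GABAergic neurons, 10 were measured, 8 higher and 2 lower, with a median difference of 0.011. Without control array 5, 4 of the 10 were higher and the median was -0.009. At an unadjusted p under 0.05, 2 (20%) were higher and 1 (10%) was lower, beside the 5.11% and 3.19% of all genes, and with the mean of the probe sets 1 was higher and 1 lower. Nr2f2, a nuclear receptor of interneurons born in the caudal ganglionic eminence that is also found in blood vessels, differed by 0.31 ± 0.09 (SE; limma p 0.00328, adjusted p 0.422), with 3 of 3 probe sets higher, and by 0.134 with their mean (limma p 0.0415). Maf, a factor of interneurons from the medial ganglionic eminence, differed by 0.18 ± 0.05 (limma p 0.00423, adjusted p 0.435), with 1 of 3 probe sets higher, and by 0.054 with their mean (limma p 0.193). Nr2f1, a relative of Nr2f2, differed by -0.077 ± 0.035 (limma p 0.0424, adjusted p 0.636), and the chromatin organiser Satb1 by 0.133 ± 0.069 (limma p 0.0734; 0.028 with the mean of its probe sets). Over the arrays the mean of this list had an r of 0.750 with Gad1 1368344_at (permutation p 0.008; rho 0.706, permutation p 0.0141) and of -0.788 with Cck (permutation p 0.00972; rho -0.629, permutation p 0.0369), both with an adjusted p of 0.454 (0.644 and -0.472 without the 2 farthest arrays).

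Of 21 further peptides, receptors and channels of interneurons, 18 were measured, 7 higher and 11 lower, with a median difference of -0.040, and of -0.014 without sucrose array 1. At an unadjusted p under 0.05, 2 were higher and 0 lower. These were Cnr1, the cannabinoid receptor found on terminals of cholecystokinin basket cells, at 0.26 ± 0.09 (SE; limma p 0.00991, adjusted p 0.509; 2 of 2 probe sets higher, 0.145 with their mean), and Erbb4, the neuregulin receptor, at 0.17 ± 0.07 (limma p 0.0327, adjusted p 0.608). Nxph1, a secreted ligand of neurexins, differed by -0.112 ± 0.056 (-0.052 with the mean of its probe sets) and Kcnc2, a potassium channel of fast-spiking cells, by 0.165 ± 0.101 (0.079). Of 10 receptors for somatostatin, vasoactive intestinal peptide and cholecystokinin, 9 were measured, 5 higher and 4 lower, with a median difference of 0.003 (-0.012 without sucrose array 1) and 1 higher at an unadjusted p under 0.05. That one was the somatostatin receptor Sstr2 at 0.20 ± 0.08 (limma p 0.0323, adjusted p 0.608), and at 0.152 with the mean of its probe sets (limma p 0.0517). Sstr1 differed by -0.19 ± 0.09 (limma p 0.0547; -0.103 with the mean of its probe sets), Vipr1 by 0.118 ± 0.064 (0.058) and Adcyap1r1, which binds PACAP and with lower affinity vasoactive intestinal peptide, by 0.090 ± 0.063 (0.011).

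Markers of other cells, from the same fit and with 0 past the adjusted threshold, gave the setting of these values, and several lists followed 1 pool. Of 12 pallial excitatory markers 6 were higher and 6 lower in the sucrose group, with a median of 0.014 (-0.009 without sucrose array 1). At an unadjusted p under 0.05, 4 of them (33.3%) were higher and 0 were lower, beside the 5.11% and 3.19% of all genes. The 4 were Camk2a at 0.36 ± 0.10 (SE; 0.154 with the mean of its probe sets), Neurod2 at 0.19 ± 0.05, Fezf2 at 0.17 ± 0.06 and Rorb at 0.29 ± 0.11. Their adjusted p ran from 0.422 to 0.586. With the mean of the probe sets 4 were higher and 1 lower, Nrgn at -0.078 (limma p 0.0458, against 0.0563 in the main fit). Of 17 striatal and central amygdala markers 2 were higher and 15 lower, with a median of -0.052. Without sucrose array 1, 7 were higher and 10 lower with a median of -0.002, and with the mean of the probe sets the median was -0.034. Pde10a was higher at an unadjusted p under 0.05, and 0 were lower.

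All 6 choroid plexus markers were higher, with a median of 0.199, and without sucrose array 1, 3 were higher and 3 lower with a median of 0.017. All 11 oligodendrocyte markers were higher, with a median of 0.086 and 2 at an unadjusted p under 0.05, and without sucrose array 5, 6 were higher and 5 lower with a median of 0.017. Of 9 astrocyte markers 8 were higher, with a median of 0.097 and 2 at an unadjusted p under 0.05. With the mean of the probe sets that median was 0.038 and 0 had such a p. Without control array 5, 5 astrocyte markers were higher and 4 lower with a median of 0.036, and without sucrose array 1 the median was 0.063. Of 9 microglia markers 5 were higher and 4 lower, with a median of 0.001 (-0.051 without control array 5). Past an unadjusted p of 0.05 there were 0 higher and 2 lower, the complement genes C1qb at -0.094 ± 0.035 (limma p 0.0184) and C1qc at -0.113 ± 0.044 (limma p 0.0221). Of 7 endothelial markers 3 were higher and 4 lower, with a median of -0.028, and of 0.019 with the mean of the probe sets. With the mean of the oligodendrocyte list as a covariate the Calb2 difference was 0.004 and the Gad2 difference -0.024, and the part of these markers in the group differences was not tested further.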

How the data were processed

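RNA from 12 pools of basolateral amygdala (6 sucrose, 6 control; 2 rats each) was hybridised to Affymetrix rat arrays. The submitters' processing notes name RMA, with no version. Values were deposited by the authors as linear ratios: for each of 31099 probe sets the control arrays averaged 1, within 2e-07. A second deposited table gives a p-value and mean ratios for 145 probe sets, per the file headers; its test is not named there and it was used only to look up the members. The number of arrays sets the precision, and no batch or scan date was given in the sources used here.

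After removal of 57 manufacturer control probe sets, a linear model of the log2 ratios with group as its term was run in limma (version 3.58.1, R 4.3.3; eBayes without trend, two-sided). P-values were adjusted by Benjamini-Hochberg across the 31042 probe sets left, with 0.05 as the threshold. Genes were named from 20826 probe sets with 1 symbol in the platform annotation; 20758 were matched to RefSeq by gene identifier and 0 symbols changed. Lists used the probe set of highest variance per gene, with the mean of all probe sets of a gene as an alternative, and were counted, not tested. Named were all members, the 3 genes most like each, and up to 4 genes of each list with the lowest p. Members, lists and tests were chosen with earlier results of these data known. Correlations (100000 permutations within groups) and ratios of SDs, and the lists with single arrays left out, were added after the data were seen. The procedures were tested on simulated data. Replicate numbers are those of the labels. Arrays with the same number correlated from -0.150 to 0.194 in their deviations from the group means, which gave no sign of pairing. Such correlations cannot show whether arrays with the same number were handled together. The alternatives were other normalizations, variance priors, covariates, tests and left-out arrays.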

Additional observations from a re-analysis of the deposited data

Results flagged for a closer look

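In 3 of the 20 groups of 6 arrays formed by 10 probe sets, 1 array stood farther from the rest than Dixon's 95% criterion allows, where chance would give about 1. Calb1 was 0.071 on the log2 scale in sucrose array 3, with the other sucrose arrays at -0.141 to -0.070. Calb2 was -0.253 in sucrose array 5, with the other sucrose arrays at -0.044 to 0.066, and that pool also had the highest mean of oligodendrocyte markers. Cck was 0.202 in control array 5, with the other control arrays at -0.098 to 0.001, and Slc32a1 and Gad2 were at their lowest of the control group in the same pool.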

How the results depend on the processing

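Under all alternatives run, 0 of the 10 probe sets passed the adjusted threshold, and the lowest adjusted p of any of them was 0.462, for Gad1 1370760_a_at. Over all probe sets the count past the threshold was 0, but 1 with the oligodendrocyte list as a covariate and, with single arrays left out, 0 to 1, where it was 1 without sucrose array 3 and without sucrose array 5. With single arrays left out, 1 to 2 of the 10 probe sets had an unadjusted p under 0.05, and Pvalb was the second, without sucrose array 4. With arrays left out in turn, the difference ran from -0.012 to 0.045 for Gad2, from -0.062 to 0.0022 for Calb2, from -0.036 to 0.029 for Cck and from 0.118 to 0.188 for Gad1 1370760_a_at, so the signs of the first 3 are not settled. A sign kept with arrays left out is not thereby settled, since the 95% intervals of all 10 probe sets except Gad1 1370760_a_at include 0. The Cck difference also changed sign with array weights (0.012), after adding the spike-in mean as a covariate (0.00028) and with the oligodendrocyte list as a covariate (0.015). With the oligodendrocyte list as a covariate the sign also changed for Gad2 (-0.024) and Calb2 (0.0035). The mean of both Gad1 probe sets was 0.055, against -0.037 for 1368344_at alone, and Welch's test gave that probe set an unadjusted p of 0.0470, where the permutation test gave 0.0411 and limma 0.194. With the replicate number as a block (replicate block), 0 probe sets passed the threshold, 0 of the 10 passed, and 1 of the 10 had an unadjusted p under 0.05, Gad1 1370760_a_at at 0.0142 (adjusted 0.609). By number, 1 of 6 sucrose arrays correlated best with its own, which is no sign of pairing. Apart from Gad2, Calb2, Cck and this average, each difference kept its sign in every alternative run, and the contrast between the Gad1 probe sets ran from -0.22 to -0.16 with arrays left out. With the mean of all probe sets of a gene the median of the endothelial list changed sign (0.019), the astrocyte median was 0.038 and that of the glutamine supply list 0.017. Without 1 pool the medians of 3 marker lists were closer to 0, at -0.002 for the striatal and 0.017 for the choroid plexus list without sucrose array 1, and 0.017 for the oligodendrocyte list without sucrose array 5. Without signal levels, what background limits is not known, and 6 pools a group bound differences only as the intervals state.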
